A study of Homo sapiens with 24 samples.

Results

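The 60 genes described here are the parts of the WNT signalling pathway that were followed by name: 19 WNT ligands, 12 receptors, 9 secreted antagonists, 9 genes of the R-spondin axis, 4 LEF/TCF nuclear factors, 5 feedback inhibitors and targets, and 2 genes for ligand processing and secretion. They were found by their symbols among the 61551 genes of the count table, all 60 had an entry, and the rule names genes rather than values, although the list was drawn up with earlier results of these data known. RNA-seq was made from H9 (WA09) human embryonic stem cells (hESCs), an established line, of 4 genotypes at 2 stages, with 3 libraries in each of the 8 groups. hHAR123 cells were unedited and are labelled WT. HAR123-KO cells had lost HAR123, a human accelerated region in an intron of SMG6 on chromosome 17, from both alleles through CRISPR-Cas9, with slightly different junctions between clones. In cHAR123 and mHAR123 cells, the human element was replaced by its chimpanzee and mouse ortholog, respectively. The stages were untreated hESCs (day 0) and neuroectoderm, reached after 5 days in Noggin (500 ng/ml), which blocks BMP signalling, and SB431542 (10 µM), which blocks activin and TGF-β receptors. All groups come from this 1 line and, by the study's methods, from 2 clones per genotype. The sources used here do not tie libraries to clones, so p-values measure the spread between these libraries, which may be technical. In bulk RNA of this kind, fewer cells of a type and less RNA per cell cannot be told apart.

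The 24 libraries held 21022748 to 35198684 counts each. The deletion lies in an intron, so exon counts did not check it. Summed pluripotency markers were 4490 to 4579 CPM (counts scaled by the library total) in hHAR123 hESCs and 2193 to 2305 CPM in hHAR123 neuroectoderm. Summed neuroectoderm markers (PAX6, SOX1, OTX2 and 5 others) were 478 to 509 CPM and 2968.5 to 2997 CPM. By the calls defined below, 6 of 8 pluripotency markers fell and 1 rose, with a median log2 change of -5.70, and all 8 neuroectoderm markers rose. For neuroectoderm, the deposited columns and the study's own gene tables disagree on which replacement line is cHAR123 and which is mHAR123, and all values below follow the column labels. A gene was called changed at an edgeR adjusted p under 0.01 with an absolute log2 fold change over 1, and rose, fell or changed below refers to such calls. Levels are CPM for 1 gene across groups, and RPKM, the same per kilobase of exon, between genes.

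WNT ligands are lipid-modified secreted proteins. In the β-catenin branch of the pathway, a ligand binds a Frizzled receptor together with LRP5 or LRP6, β-catenin is spared from degradation, and with LEF/TCF factors it switches on targets such as AXIN2 and NKD1 that damp the signal again. SFRP proteins and FRZB capture ligands outside the cell, and DKK1 occupies LRP5 and LRP6. R-spondins with LGR receptors restrain RNF43 and ZNRF3, ligases that remove Frizzleds from the surface. In the early embryo, low WNT activity accompanies forebrain identity, whereas WNT1 and WNT3A are known from the dorsal neural tube, the midbrain-hindbrain border and the region where neural crest arises.

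The first question was what the pathway looks like in unedited cells and how it changes on the way to neuroectoderm. In hHAR123 cells the 19 ligands together rose from 3.40 ± 0.31 RPKM (SD, n = 3) in hESCs to 78.2 ± 1.42 RPKM in neuroectoderm, and in the latter WNT5B made up 39.0% of the sum, WNT7B 26.2%, WNT8B 21.8% and WNT1 3.93%. In hESCs the largest shares were those of WNT3 (21.4%), WNT9A (19.6%) and WNT5B (15.9%). Of 50 members tested between the stages, 24 rose and 10 fell, beside 45.9% of all genes called (24.6% higher, 21.2% lower). Among ligands 9 rose and none fell of 12 tested, and among the R-spondin axis 5 rose and 1 fell of 9. Of 12 receptors tested 4 rose and 4 fell.

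WNT1, the ligand of the midbrain-hindbrain border, had no count in any of the 3 hHAR123 hESC libraries and 514 counts in the 3 neuroectoderm libraries, at least 82.7-fold higher with a floor of 3 counts per library. WNT7B, a ligand of the forebrain and other epithelia, went from 0.158, 0.271 and 0.256 CPM to 103, 105 and 105 CPM, a log2 change of 8.51 ± 0.10 (SE; edgeR adjusted p = 6.63e-42). WNT5B, a ligand known mainly from β-catenin-independent signalling, went from 2.08, 2.56 and 2.24 CPM to 122, 132 and 134 CPM (5.52 ± 0.07). In all 3 ligands every neuroectoderm library was above every hESC library. WLS, the carrier that takes WNT proteins to the cell surface, went from 2.02, 2.5 and 2.59 CPM to 513, 515 and 517 CPM (7.46 ± 0.05). LEF1, a nuclear partner of β-catenin, went from 0.60, 0.241 and 0.455 CPM to 36.8, 35.7 and 34.8 CPM (6.07 ± 0.13), and RSPO2, a secreted enhancer of WNT signalling, from 0.505, 0.542 and 0.71 CPM to 40.1, 35.2 and 38.5 CPM (5.70 ± 0.12). Ligands, their carrier, a nuclear factor and an R-spondin thus all stood among the 6 largest increases.

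The largest decreases included genes of 5 roles. TCF7L1, the LEF/TCF member known as a repressor in pluripotent cells, went from 274, 273 and 264 CPM in hHAR123 hESCs to 54.0, 51.6 and 56.2 CPM in neuroectoderm, a log2 change of -2.62 ± 0.04 (edgeR adjusted p = 4.66e-39). FZD5, a Frizzled of the eye field, went from 170, 168 and 176 CPM to 52.0, 53.4 and 53.2 CPM (-1.99 ± 0.04). SFRP5, a secreted antagonist, was at 2.05, 2.29 and 3.13 CPM and then at 0.19, 0.0827 and 0.256 CPM (-4.09 ± 0.32). The groups did not overlap for any of these genes. RSPO4 (-1.81 ± 0.10), FZD8 (-1.52 ± 0.09) and NKD2, a Dishevelled-binding inhibitor (-1.52 ± 0.11), completed the list. Frizzleds and R-spondins therefore changed their leading members. Among Frizzleds FZD7 held 63.0% of the summed RPKM in hESCs and 29.0% in neuroectoderm, where FZD2 held 34.7%. Among R-spondins RSPO4 held 96.1% in hESCs and 14.5% in neuroectoderm, where RSPO2 held 68.6%. Among LEF/TCF factors TCF7L1 held 78.7% in hESCs and 37.9% in neuroectoderm, where TCF7L2 stood level with it at 37.9%.

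In the edited lines the same stage comparison gave other members as well. In HAR123-KO cells 26 members rose and 9 fell of 51 tested (41.1% of all genes called; 22.0% higher, 19.1% lower). In cHAR123 cells 28 rose and 11 fell of 51 (42.7%; 21.9% and 20.8%), and in mHAR123 cells 28 rose and 10 fell of 52 (41.9%; 21.3% and 20.7%). SFRP1 and SFRP2 encode the pair of SFRPs with the highest levels per length in both stages. SFRP1 did not pass the fold threshold in hHAR123 cells (-0.10 ± 0.03) but fell in HAR123-KO cells (-1.37 ± 0.03), and SFRP2 fell in both (-1.10 ± 0.03 and -2.19 ± 0.03).

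**Figure D1:**
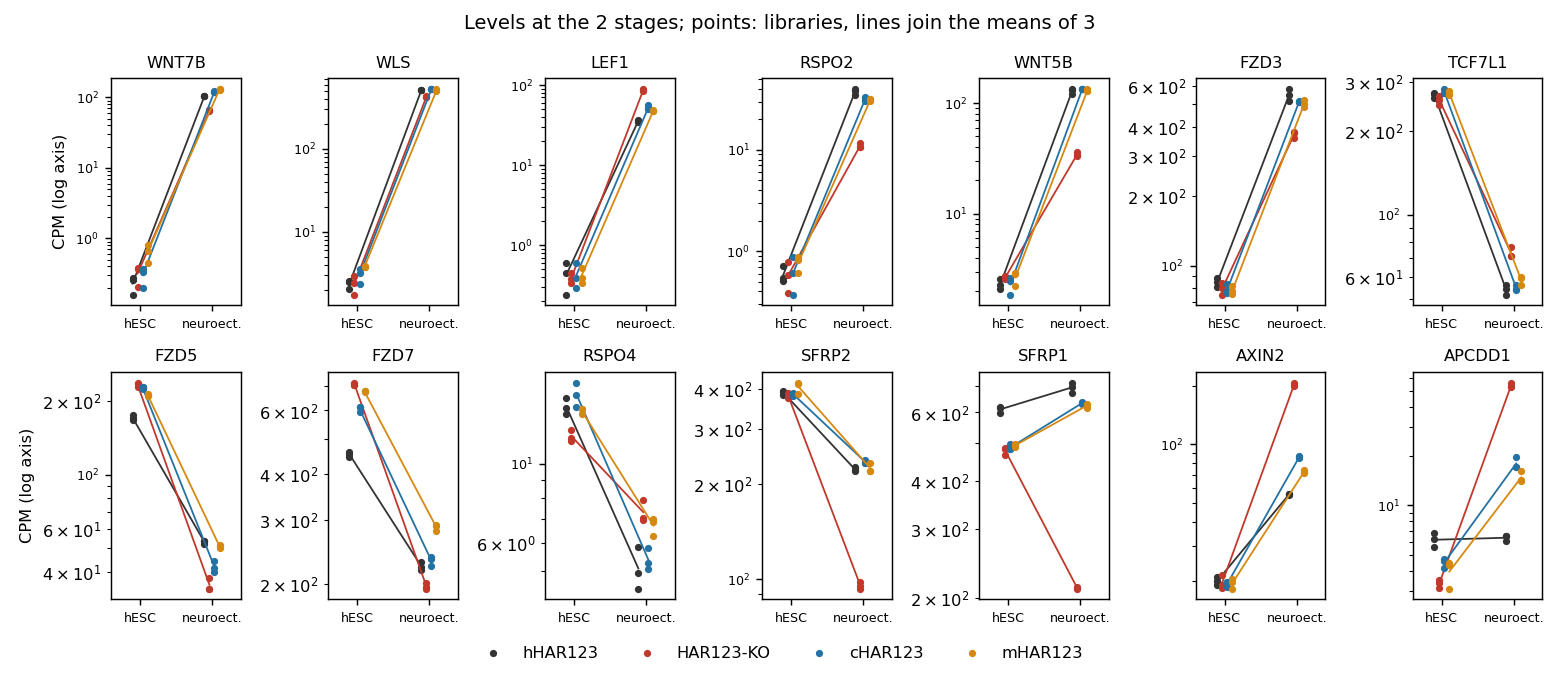
Levels of 14 members in hESCs and neuroectoderm of the 4 genotypes, in CPM on a log axis, with 1 point per library. WLS went from a mean of 2.37 CPM to 515 CPM in hHAR123 cells, whereas TCF7L1 and FZD5 went down in every genotype.

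The main comparison asked what deletion of HAR123 does to these genes in neuroectoderm. Of the 60 members 51 had enough counts to be tested, and 17 rose and 7 fell in HAR123-KO neuroectoderm compared with hHAR123, or 47.1% of those tested, beside 9.45% of all 21362 genes tested (4.92% higher, 4.52% lower). With the adjusted p alone, 41 members were called, beside 44.1% of all genes. The median log2 change was 0.13 over the members and 0.00 over all genes tested, with rises and falls side by side in the same classes. By role, 5 ligands rose and 2 fell of 14 tested, 3 receptors rose and 2 fell of 12, 1 antagonist rose and 2 fell of 5, 3 genes of the R-spondin axis rose and 1 fell of 9, 1 nuclear factor rose of 4, and 4 feedback genes rose of 5; neither secretion gene was called. WNT2, WNT6, WNT10A, WNT11, WNT16, SFRP4, SFRP5, DKK2 and DKK4 had too few counts to be tested in this comparison, with at most 29 in any neuroectoderm library.

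**Figure D2:**
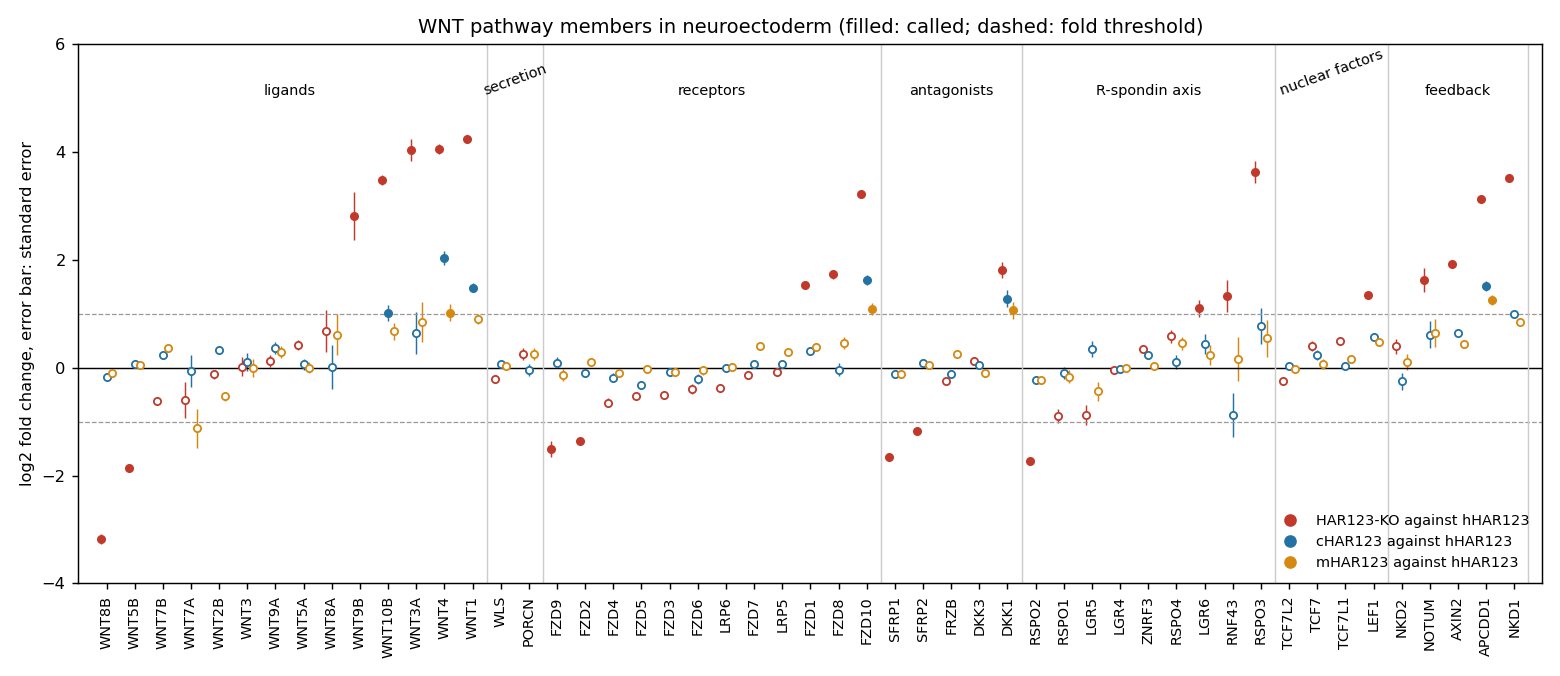
Log2 fold change against hHAR123 neuroectoderm, with its SE, for the 51 tested members in HAR123-KO, cHAR123 and mHAR123 cells, grouped by role. Filled points passed both thresholds and dashed lines mark a log2 change of 1 in either direction. The changes in HAR123-KO run from -3.18 (WNT8B) to 4.25 (WNT1), and the 6 and 4 called members of the replacement lines all lie above 0.

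WNT1 showed the largest rise. Its level was 6.66, 8.06 and 7.64 CPM in the hHAR123 libraries and 137 CPM in each HAR123-KO library (log2 fold change 4.25 ± 0.06 SE; edgeR adjusted p = 1.66e-48). WNT4, a ligand known from kidney and gonad development, was at 2.71, 2.02 and 2.48 CPM in hHAR123 and at 40.01, 38.4 and 36.5 CPM in HAR123-KO (4.05 ± 0.09, adjusted p = 5.76e-38). For both genes the groups lay far apart with no overlap. WNT3A, a ligand that activates the β-catenin branch, was low in hHAR123 at 0.19, 0.455 and 0.641 CPM and was at 7.67, 6.74 and 6.54 CPM in HAR123-KO (4.03 ± 0.21, adjusted p = 9.66e-23). WNT10B, which lies beside WNT1, was at 3.19, 2.23 and 2.90 CPM and at 31.7, 27.6 and 30.0 CPM (3.48 ± 0.10, adjusted p = 6.65e-34). WNT9B remained scarce in both groups, with 0, 0.248 and 0.213 CPM and 0.948, 0.915 and 1.47 CPM, and its rise has the widest error of the ligands called (2.81 ± 0.44, adjusted p = 3.7e-07).

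The ligands that fell were among the 3 with the largest shares in hHAR123 neuroectoderm. WNT8B, a ligand of the dorsomedial forebrain, was at 38.3, 34.5 and 36.8 CPM in hHAR123 and at 3.79, 4.08 and 3.80 CPM in HAR123-KO (log2 fold change -3.18 ± 0.08, edgeR adjusted p = 2.15e-35). WNT5B was at 122, 132 and 134 CPM and at 35.8, 34.2 and 33.6 CPM (-1.86 ± 0.05, adjusted p = 5.01e-37). Neither gene's groups overlapped. WNT7B, at 103, 105 and 105 CPM and 66.0, 63.7 and 66.5 CPM, was lower with an adjusted p of 3.29e-19 but missed the fold threshold (-0.62 ± 0.04). WNT9A (1.41 ± 0.09 and 1.48 ± 0.10 RPKM, log2 change 0.12) and WNT2B (1.31 ± 0.09 and 1.16 ± 0.08 RPKM, -0.12) were not called either, and WNT2B shares 21.5% of its exon bases with ST7L on the opposite strand. The remaining 4 tested ligands had log2 changes from -0.59 (WNT7A) to 0.68 (WNT8A), none past the thresholds.

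Per length, different ligands led in the 2 groups. WNT1 was at 3.08 ± 0.30 RPKM in hHAR123 and 56.6 ± 0.23 RPKM in HAR123-KO neuroectoderm, so that its share of all ligand RPKM was 3.93% and 52.8%, respectively. WNT5B held 39.0% and 7.59%, WNT8B 21.8% and 1.69%, WNT7B 26.2% and 11.99%, WNT10B 1.36% and 10.7%, and WNT4 0.661% and 7.67%. The sum over ligands was 78.2 ± 1.42 RPKM in hHAR123 and 107 ± 1.20 RPKM in HAR123-KO.

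**Figure D3:**
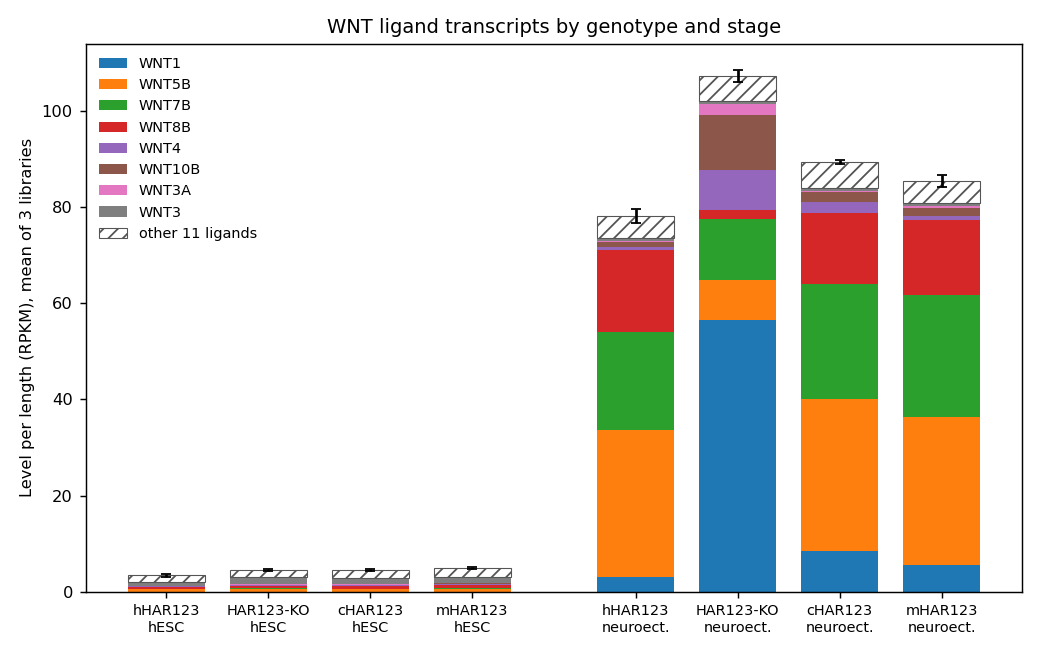
Stacked mean RPKM of the WNT ligands in the 8 groups (n = 3 libraries each), with the SD of the summed ligand RPKM as error bar. WNT1 fills 52.8% of the bar of HAR123-KO neuroectoderm, whereas WNT5B, WNT7B and WNT8B fill most of the bars of the other 3 neuroectoderm groups.

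Letters upstream of the genes at both extremes are shown with those of DKK1, which was added after its values were seen. Among the 41 members that could be searched, it alone held a TCF/LEF motif in the 250 bases before its start. Of the 60 members 41 had a promoter in the RefSeq table (GRCh38.p14). WNT10B, FZD10, AXIN2, NKD1 and NOTUM, which rose in HAR123-KO neuroectoderm, had no entry and were not searched. The lines give the 250 bases before the start of each gene, 5′ to 3′ on its own strand, in lower case, with TCF/LEF letters in capitals. The stretches are chr12:48978072-48978321, chr10:100462759-100463008 and chr10:52314031-52314280, each on the plus strand.
WNT1: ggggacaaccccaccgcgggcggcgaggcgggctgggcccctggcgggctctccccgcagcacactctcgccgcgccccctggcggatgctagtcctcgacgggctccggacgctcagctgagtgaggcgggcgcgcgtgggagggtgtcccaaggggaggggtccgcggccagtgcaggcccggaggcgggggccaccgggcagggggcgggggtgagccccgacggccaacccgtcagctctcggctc
WNT8B: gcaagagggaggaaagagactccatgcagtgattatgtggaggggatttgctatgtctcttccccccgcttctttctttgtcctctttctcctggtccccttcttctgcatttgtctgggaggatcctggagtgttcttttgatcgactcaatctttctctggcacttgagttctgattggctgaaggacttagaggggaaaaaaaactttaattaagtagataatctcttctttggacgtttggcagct
DKK1: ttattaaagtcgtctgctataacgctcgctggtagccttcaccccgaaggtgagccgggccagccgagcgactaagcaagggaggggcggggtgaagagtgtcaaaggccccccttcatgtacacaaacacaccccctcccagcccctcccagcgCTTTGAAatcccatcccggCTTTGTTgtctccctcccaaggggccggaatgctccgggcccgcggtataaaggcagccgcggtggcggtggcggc
The motifs searched, on both strands, were 4 words of 7 letters, CTTTG followed by AA, AT, TA or TT. The first match begins 95 bases and the other 76 bases before the DKK1 start, and neither WNT1 nor WNT8B holds one in these bases. In the full window, which runs 50 bases past the start, 2 of 41 members (4.88%), DKK1 and WNT3, held a motif, beside 13.9% of 27305 promoters. The WNT1 stretch was rich in G and C (78.4% of bases) and that of WNT8B was not (45.2%). Over the full window the median was 69.7% in the 41 members, 66.3% in the 12 that rose, 56.0% in the 4 that fell and 58.3% in all promoters. A match describes letters only, and its absence says nothing of a factor's binding.

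Among the receptors, FZD10 rose most. FZD10, a Frizzled of the dorsal neural tube, was at 4.76, 4.42 and 4.83 CPM in hHAR123 and 41.3, 42.0 and 42.7 CPM in HAR123-KO neuroectoderm (log2 fold change 3.22 ± 0.08, edgeR adjusted p = 2.92e-37). FZD8 was at 5.38, 5.79 and 5.55 CPM and at 18.2, 16.7 and 18.6 CPM (1.73 ± 0.09, adjusted p = 1.72e-22), and FZD1 at 17.1, 16.5 and 16.9 CPM and at 49.4, 48.7 and 43.7 CPM (1.54 ± 0.06, adjusted p = 7.92e-28). All HAR123-KO libraries were above all hHAR123 libraries in these 3 genes. FZD1 is among the genes that the study showed as examples from these libraries, so its direction is not independent evidence. FZD2 was the most abundant Frizzled per length in hHAR123 neuroectoderm and fell from 211, 226 and 224 CPM to 86.0, 79.8 and 84.4 CPM (-1.35 ± 0.04, adjusted p = 1.6e-34). FZD9 was at 6.80, 7.65 and 7.003 CPM and at 2.89, 2.70 and 1.72 CPM (-1.51 ± 0.14, adjusted p = 4.65e-13). The summed Frizzled level was 168 ± 0.34 RPKM in hHAR123 and 125 ± 1.29 RPKM in HAR123-KO, with FZD2 at 34.7% and 17.6% of it and FZD10 at 0.848% and 10.2%. Of the 7 receptors not called, FZD7 (48.6 ± 1.19 and 42.9 ± 0.74 RPKM, log2 change -0.13), FZD3 (39.9 ± 2.35 and 26.9 ± 0.80 RPKM, -0.51) and the co-receptor LRP6 (22.5 ± 0.65 and 16.7 ± 0.28 RPKM, -0.38) were the most abundant, and their log2 changes ran from -0.65 (FZD4) to -0.07 (LRP5). FZD4 shares 18.9% of its exon bases with PRSS23 on the opposite strand, a gene at 241 CPM in hHAR123 and 35.1 CPM in HAR123-KO, so a part of its reads could belong there if strand was not used in counting.

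The abundant SFRPs both fell. SFRP1, which binds and sequesters WNT proteins, was at 716, 674 and 699 CPM in hHAR123 and 212, 213 and 211 CPM in HAR123-KO neuroectoderm (log2 fold change -1.66 ± 0.03, edgeR adjusted p = 4.15e-43). SFRP2, its close relative, was at 219.8, 226 and 222 CPM and at 95.6, 98.0 and 93.5 CPM (-1.17 ± 0.03, adjusted p = 3.6e-33). Neither gene's groups overlapped, and the SFRP and FRZB sum was 268 ± 3.02 RPKM and 99.97 ± 1.15 RPKM. DKK1 went the other way, from 2.24, 2.36 and 1.84 CPM to 6.72, 8.28 and 6.74 CPM (1.81 ± 0.14, adjusted p = 7.62e-16). The antagonists not called were FRZB (8.96 ± 0.25 and 7.24 ± 0.45 RPKM, log2 change -0.26) and DKK3 (1.31 ± 0.06 and 1.38 ± 0.08 RPKM, 0.13), and DKK3 shares 47.5% of its exon bases with USP47 on the opposite strand.

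In the R-spondin axis, RSPO2 and RSPO3 moved in opposite directions. RSPO2 was at 40.1, 35.2 and 38.5 CPM in hHAR123 and 10.7, 10.7 and 11.7 CPM in HAR123-KO neuroectoderm (log2 fold change -1.73 ± 0.07, edgeR adjusted p = 1.32e-27). RSPO3 was at 0.381, 0.62 and 0.512 CPM and at 5.94, 6.03 and 6.42 CPM (3.63 ± 0.20, adjusted p = 9.57e-22). The groups overlapped in neither gene, and RSPO3 shares 15.7% of its exon bases with an unnamed gene on the opposite strand that was at 0.961 and 2.69 CPM. The R-spondin sum was 12.7 ± 0.84 RPKM in hHAR123 and 7.48 ± 0.14 RPKM in HAR123-KO. LGR6, an R-spondin receptor, was at 1.86, 2.85 and 2.05 CPM and at 4.74, 4.83 and 4.54 CPM (1.10 ± 0.16, adjusted p = 4.28e-08), and its log2 change was 0.97 without hHAR123 replicate 1. RNF43, a ligase that removes Frizzleds, was at 0.523, 0.661 and 0.47 CPM and at 1.42, 1.58 and 1.06 CPM (1.33 ± 0.30, adjusted p = 0.000151). Its value is uncertain because 68.4% of its exon bases also belong to another gene entry on the same strand. Of the 5 not called, LGR4 (27.3 ± 1.15 and 25.5 ± 0.36 RPKM, -0.05), ZNRF3 (7.36 ± 0.48 and 9.07 ± 0.22 RPKM, 0.35) and RSPO1 (2.03 ± 0.06 and 1.06 ± 0.13 RPKM, -0.89) were the most abundant in hHAR123, and the others had log2 changes of 0.58 (RSPO4) and -0.88 (LGR5).

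**Figure D4:**
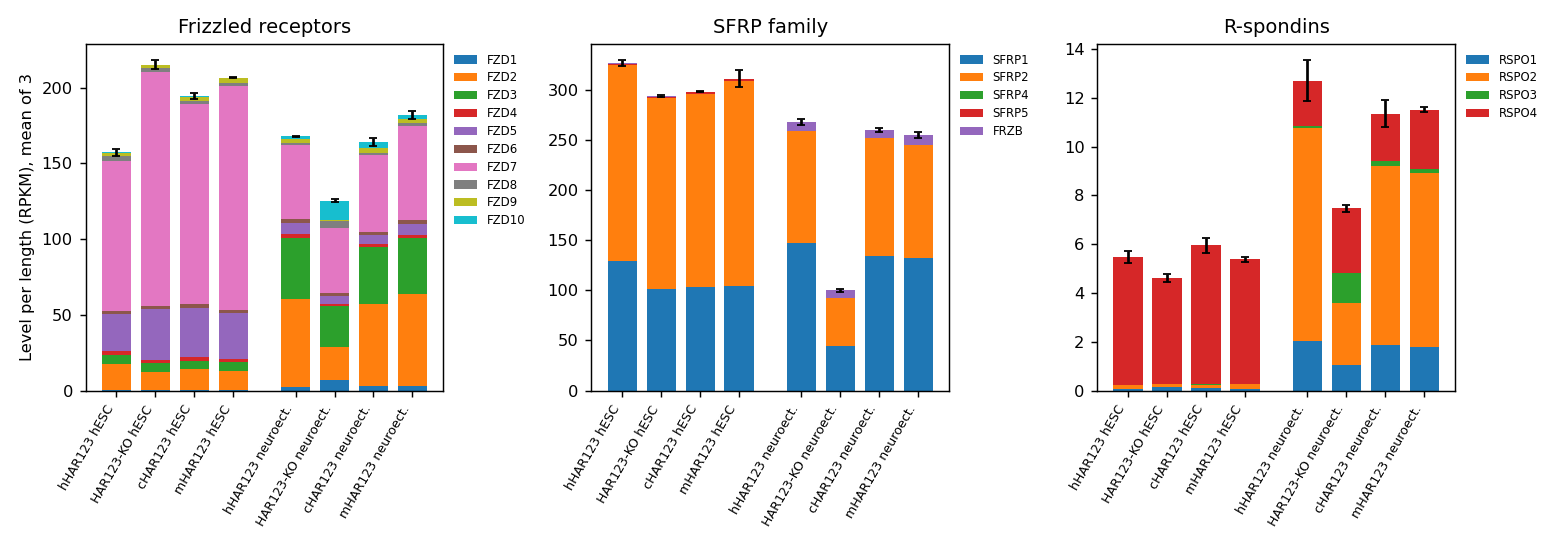
Stacked mean RPKM of the Frizzleds, of SFRPs with FRZB and of the R-spondins in the 8 groups (n = 3 libraries each), with the SD of each sum as error bar. In neuroectoderm the SFRP sum is 268 RPKM in hHAR123 and 99.97 RPKM in HAR123-KO, whereas cHAR123 and mHAR123 stand at 260.3 and 255 RPKM.

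Of the 5 feedback inhibitors and targets among the members, 4 rose. MYC, a target among the further pathway genes described below, fell. AXIN2, the scaffold that promotes β-catenin degradation and a widely used readout of the pathway, was at 55.5, 55.8 and 55.1 CPM in hHAR123 and 208, 202 and 200.3 CPM in HAR123-KO neuroectoderm (log2 fold change 1.92 ± 0.04, edgeR adjusted p = 2.11e-41). NKD1, which binds Dishevelled, was at 27.8, 29.5 and 28.9 CPM and at 322, 319 and 310.4 CPM (3.52 ± 0.04, adjusted p = 1.41e-51). APCDD1, a membrane inhibitor of WNT signalling, was at 6.04, 6.49 and 6.53 CPM and at 56.0, 53.1 and 52.6 CPM (3.13 ± 0.07, adjusted p = 1.08e-38). Every HAR123-KO library was above every hHAR123 library in these 3 genes. NOTUM, the enzyme that strips the lipid from WNT proteins, was far lower at 0.809, 0.95 and 1.02 CPM and 2.63, 3.54 and 2.21 CPM (1.63 ± 0.22, adjusted p = 1.7e-08). NKD2, the feedback gene not called, was at 1.25 ± 0.19 and 1.59 ± 0.13 RPKM (0.40). AXIN2 shares 25.3% of its exon bases with a gene entry on the same strand that was at most 0.753 CPM in either group.

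Among the nuclear factors only LEF1 passed both thresholds, at 36.8, 35.7 and 34.8 CPM in hHAR123 and 89.9, 87.3 and 84.6 CPM in HAR123-KO neuroectoderm (log2 fold change 1.34 ± 0.05, edgeR adjusted p = 1.3e-30). Its share of the LEF/TCF RPKM was 20.8% and 37.0%. TCF7L1 (12.2 ± 0.52 and 16.5 ± 0.73 RPKM, log2 change 0.49), TCF7L2 (12.2 ± 0.35 and 9.84 ± 0.42 RPKM, -0.25) and TCF7 (1.12 ± 0.19 and 1.43 ± 0.07 RPKM, 0.40) had adjusted p-values under the threshold and changes within 1. For ligand secretion, WLS was, after SFRP1, the most abundant member per length in hHAR123, at 115 ± 0.43 RPKM in hHAR123 and 95.8 ± 2.11 RPKM in HAR123-KO (-0.22), and PORCN, which attaches the lipid, was at 1.21 ± 0.16 and 1.4 ± 0.17 RPKM (0.26). WLS and FZD5 belong to the study's markers of neural progenitor subsets.

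**Figure D5:**
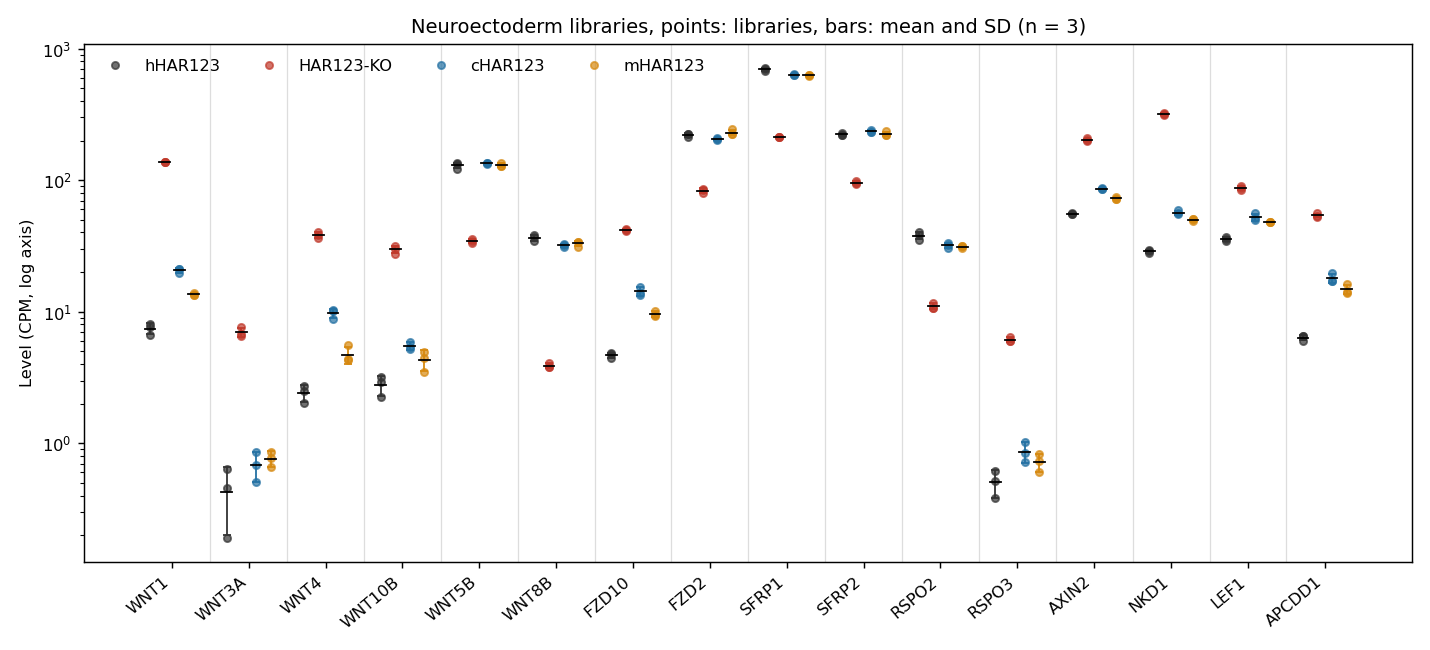
Levels of 16 members in neuroectoderm of the 4 genotypes, in CPM on a log axis, with 1 point per library and the mean ± SD. For WNT1, FZD10, NKD1 and APCDD1 the order is hHAR123, mHAR123, cHAR123 and HAR123-KO from low to high, whereas WNT5B, WNT8B, SFRP1 and SFRP2 are lowest in HAR123-KO.

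Markers of other territories moved with these genes, and their part in the result was not tested. None of the markers is one of the 60 members. In neuroectoderm the 11 neural crest markers summed to 255 to 263 CPM in hHAR123 and 2272 to 2288 CPM in HAR123-KO, with 10 of 10 tested markers higher. The 7 roof plate markers summed to 54.5 to 56.0 CPM and 332 to 343 CPM, with 6 higher and BMP6 lower. The 8 forebrain and eye field markers summed to 319 to 323 CPM and 55.8 to 57.8 CPM, with 6 of 7 tested lower. Crest and dorsal midline markers were thus high, and forebrain markers low, in the same libraries in which WNT1, WNT3A and FZD10 were high and WNT8B was low. Midbrain and hindbrain markers summed to 19.5 to 20.5 CPM and 97.9 to 99.5 CPM, with 3 of 5 tested higher (EN1, PAX2, IRX3) and 2 lower (PAX8, EGR2). Of 8 neuroectoderm markers 4 fell and MEIS2 rose, of 8 pluripotency markers SOX2 fell and ZFP42 rose, and of 7 tested surface ectoderm and placode markers 2 rose and 2 fell. Mesoderm markers summed to at most 3.03 CPM in either group, with TBXT, MIXL1, MSGN1 and HAND1 at 3 counts or fewer in each library, and SOX17, FOXA2 and GATA6 of the endoderm list were also at 3 counts or fewer in both groups. The 5 endoderm markers summed to 47.6 to 48.6 CPM in hHAR123 and 51.3 to 55.3 CPM in HAR123-KO, and the 1 tested, CXCR4, a chemokine receptor, had a log2 change of 0.20 (edgeR adjusted p = 0.000266) within the fold threshold.

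The replacement lines were then compared with hHAR123 to ask whether an ortholog at the same place gives the human pattern. The 3 comparisons share the hHAR123 libraries, so values are set side by side. In cHAR123 neuroectoderm 6 members rose and none fell of 51 tested (0.978% of all genes called, 0.522% higher), and in mHAR123 neuroectoderm 4 rose and none fell of 52 (1.03% called, 0.603% higher). With the adjusted p alone, the counts were 16 (9.89% of all genes) and 19 (14.0%). WNT4 was at 10.1, 8.79 and 10.3 CPM in cHAR123 and 4.27, 4.35 and 5.54 CPM in mHAR123, compared with 2.71, 2.02 and 2.48 CPM in hHAR123, with log2 fold changes of 2.04 ± 0.13 (edgeR adjusted p = 1.75e-16) and 1.02 ± 0.16 (4.63e-06). FZD10 was at 14.0, 13.4 and 15.4 CPM and 10.2, 9.48 and 9.26 CPM (1.62 ± 0.10, adjusted p = 7.6e-17; 1.09 ± 0.11, 3.09e-10). APCDD1 was at 19.7, 17.1 and 17.2 CPM and 14.2, 14.0 and 16.2 CPM (1.51 ± 0.09, adjusted p = 2.76e-17; 1.26 ± 0.09, 1.89e-13). In these genes no library of either line overlapped with hHAR123 or with HAR123-KO. DKK1 was at 5.08, 5.87 and 4.48 CPM and 4.2, 4.1 and 4.80 CPM (1.28 ± 0.15, adjusted p = 2.39e-08; 1.06 ± 0.16, 2.64e-06).

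WNT1 and WNT10B were called in cHAR123 but not in mHAR123. WNT1 was at 21.2, 21.1 and 19.6 CPM in cHAR123 and 13.5, 13.5 and 13.9 CPM in mHAR123, compared with 6.66, 8.06 and 7.64 CPM in hHAR123 (1.48 ± 0.08, edgeR adjusted p = 7.7e-18; 0.90, 7.23e-10). WNT10B was at 5.40, 5.92 and 5.2 CPM and 3.46, 4.47 and 4.98 CPM (1.01 ± 0.14, adjusted p = 6.38e-07; 0.68, 0.00165). Both replacement lines lay above hHAR123 in each library. Between the replacement lines themselves, WNT1 differed with an adjusted p under 0.01 and WNT10B did not. NKD1, AXIN2 and LEF1 were also higher in cHAR123 and mHAR123 without passing the fold threshold. The log2 changes were 0.99 and 0.84 for NKD1, 0.65 and 0.43 for AXIN2, and 0.57 and 0.47 for LEF1. Each had an edgeR adjusted p under 0.01. AXIN2, for example, was at 85.4, 87.0 and 86.1 CPM in cHAR123 and 73.8, 72.1 and 71.7 CPM in mHAR123, which separated the 4 genotypes. Some calls rested on single libraries. The log2 change of WNT10B in cHAR123 was 0.96 without cHAR123 replicate 2 and 0.88 without hHAR123 replicate 2, that of WNT4 in mHAR123 was 0.91 without hHAR123 replicate 2 and 0.88 without mHAR123 replicate 3, and that of DKK1 in mHAR123 was 0.96 without hHAR123 replicate 3 and 0.99 without mHAR123 replicate 3.

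The members that fell in HAR123-KO stayed close to hHAR123 in the replacement lines. WNT5B was at 135, 134 and 133 CPM in cHAR123 and 134, 128 and 128 CPM in mHAR123, WNT8B at 31.0, 32.2 and 32.7 CPM and 31.3, 34.2 and 34.0 CPM, and SFRP1 at 638, 632 and 634 CPM and 628, 632 and 618 CPM. SFRP1 was lower than in hHAR123 by 0.12 and 0.11 on the log2 scale with edgeR adjusted p-values of 0.000537 and 0.0042, and RSPO2 by 0.23 and 0.24 (0.00242 and 0.00166). WNT1 made up 9.52% of ligand RPKM in cHAR123 and 6.58% in mHAR123, and WNT5B 35.4% and 35.9%. Summed neural crest markers were 456 to 467 CPM in cHAR123 (7 of 10 tested higher) and 518 to 524 CPM in mHAR123 (8 of 10), summed roof plate markers 98.5 to 102 CPM (5 of 7) and 76.1 to 82.5 CPM (1 of 7), and summed forebrain markers 296 to 304 CPM and 304 to 307 CPM. Their part in these results was not tested.

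Compared directly with HAR123-KO, 8 members were higher and 13 lower of 52 tested in cHAR123 neuroectoderm (7.61% of all genes called; 3.7% higher, 3.91% lower), and also 8 and 13 of 52 in mHAR123 (7.33%; 3.55% and 3.78%). The adjusted p alone gave 40 (39.0% of all genes) and 41 members (36.5%). The largest differences above HAR123-KO in cHAR123 were those of WNT8B (3.02 ± 0.08), WNT5B (1.95 ± 0.04), FZD9 (1.63 ± 0.14), SFRP1 (1.57 ± 0.02) and RSPO2 (1.52 ± 0.07), and those below it WNT3A (-3.37 ± 0.18), RSPO3 (-2.84 ± 0.17), WNT1 (-2.74 ± 0.04), NKD1 (-2.5 ± 0.03) and WNT10B (-2.44 ± 0.08). In mHAR123 they were WNT8B (3.10 ± 0.08), WNT5B (1.93 ± 0.04), SFRP1 (1.58 ± 0.03), RSPO2 (1.51 ± 0.07) and FZD2 (1.48 ± 0.04) above, and WNT1 (-3.32 ± 0.05), WNT9B (-3.28 ± 0.48), WNT3A (-3.17 ± 0.17), RSPO3 (-3.06 ± 0.18) and WNT4 (-3.01 ± 0.08) below. WNT8B, WNT5B, SFRP1 and RSPO2 were thus among the largest differences above HAR123-KO in both lines, and WNT1, WNT3A and RSPO3 among those below it. Between the replacement lines, WNT4 was the only called member of 51 tested (0.261% of all genes called, 0.156% lower), lower in mHAR123 by a log2 change of -1.02 ± 0.11 (edgeR adjusted p = 1.54e-09), and it missed the fold threshold when any of cHAR123 replicates 1 and 3 or mHAR123 replicates 1 and 2 was left out. WNT1 (-0.58), FZD10 (-0.54) and AXIN2 (-0.22) were lower, and FZD7 (0.33) higher, in mHAR123 with changes within 1, and 13 members in all had adjusted p-values under 0.01 (4.2% of all genes).

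The same genotypes were compared in hESCs. Here 1 of 43 tested members was called in HAR123-KO (1.18% of all genes called, 0.96% higher), none of 42 in cHAR123 (0.85%) and 2 of 43 in mHAR123 (1.23%, 1.03% higher). With the adjusted p alone the counts were 11 (12.4% of all genes), 9 (16.3%) and 14 (19.2%). For cHAR123 edgeR gave 18 of 42 members with an unadjusted p under 0.05. The share of all genes at that level was not counted, so the 18 are not read as a result. DESeq2 called none. WNT3, a ligand required for the primitive streak, was at 3.16, 2.92 and 3.15 CPM in hHAR123 and 5.83, 6.5 and 6.70 CPM in HAR123-KO hESCs (log2 fold change 1.03 ± 0.11, edgeR adjusted p = 1.86e-09). The groups did not overlap, but the change was 0.98 without HAR123-KO replicate 3 and 0.99 without hHAR123 replicate 2. WNT3 was also at 4.85, 4.94 and 5.32 CPM in cHAR123 (0.68) and 5.89, 4.99 and 5.40 CPM in mHAR123 (0.78). In mHAR123 hESCs the calls concerned genes at about 1 CPM or less. WNT7B was at 0.158, 0.271 and 0.256 CPM in hHAR123 and 0.667, 0.808 and 0.444 CPM in mHAR123 (1.42 ± 0.37, adjusted p = 0.00268), with adjusted p-values of 0.0139 to 0.031 when hHAR123 replicate 1 or mHAR123 replicate 1 or 2 was left out. FZD10 was at 0.473, 0.482 and 0.568 CPM and 1.16, 1.19 and 1.30 CPM (1.21 ± 0.26, adjusted p = 0.000262; DESeq2 adjusted p = 0.0109).

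Smaller differences from hHAR123 appeared in hESCs of every edited line. These comparisons share the hHAR123 hESC libraries, so they are not independent of each other. FZD7, which held most of the Frizzled RPKM of hESCs, was at 454, 447 and 460.3 CPM in hHAR123, 703, 716 and 703 CPM in HAR123-KO, 594, 614 and 612 CPM in cHAR123 and 674, 677 and 677 CPM in mHAR123, with log2 fold changes of 0.62, 0.39 and 0.53. FZD5 was higher by 0.43, 0.38 and 0.27, and FZD2 changed by -0.55, -0.37 and -0.50, SFRP1 by -0.38, -0.36 and -0.35, FZD8 by -0.37, -0.43 and -0.44 and APCDD1 by -0.90, -0.49 and -0.67. All these values had edgeR adjusted p-values under 0.01 and none passed the fold threshold. The summed Frizzled level was 157 ± 2.06 RPKM in hHAR123 hESCs, 215 ± 2.76 in HAR123-KO, 194 ± 1.97 in cHAR123 and 206 ± 0.30 in mHAR123, and the hHAR123 libraries were below those of each edited line.

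Whether the effect of an edit differed between the stages was the subject of an interaction test, which takes the log2 effect in neuroectoderm minus that in hESCs. For HAR123-KO 11 members were called with a positive and 9 with a negative difference of 52 tested (7.87% of all genes called; 3.84% positive, 4.03% negative). For cHAR123 there were 3 positive of 53 (0.797%; 0.24% positive) and for mHAR123 1 positive of 54 (0.967%; 0.304% positive). The adjusted p alone gave 35 (32.5% of all genes), 9 (8.71%) and 13 members (12.8%). NKD1 was at 20.2, 19.2 and 20.6 CPM in hHAR123 hESCs and 17.5, 17.4 and 18.1 CPM in HAR123-KO hESCs, and the effects differed by 3.71 ± 0.07 (edgeR adjusted p = 3.26e-41). AXIN2 was at 19.1, 19.97 and 20.8 CPM and 21.5, 19.1 and 18.2 CPM, so its groups overlapped in hESCs and not in neuroectoderm (1.98 ± 0.07, adjusted p = 1.15e-29). APCDD1 was lower in HAR123-KO hESCs, at 6.75, 6.20 and 5.57 CPM and 3.13, 3.37 and 3.51 CPM, and higher in neuroectoderm (4.02 ± 0.13, adjusted p = 2.36e-30). APCDD1 was also called in cHAR123 (2.01 ± 0.14) and mHAR123 (1.95 ± 0.15), beside WNT4 (1.5 ± 0.27) and NKD1 (1.04 ± 0.08) in cHAR123. The stage changes give the same values another way: NKD1 changed by 0.23 from hESCs to neuroectoderm in hHAR123 and by 3.96 in HAR123-KO, and WNT8B by 5.21 and 1.58.

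Genes of the pathway that are not among the 60 were counted as well. Of 56 listed, which include the β-catenin destruction complex, Dishevelleds, planar polarity genes and further inhibitors and targets, 50 were tested in HAR123-KO neuroectoderm, where 5 rose and 1 fell, or 12%, beside the 9.45% of all genes called. The 3 largest rises were those of SOSTDC1, an antagonist of BMP and WNT ligands (0.143, 0.124 and 0.128 CPM in hHAR123 and 1.03, 1.04 and 1.02 CPM in HAR123-KO, log2 fold change 2.98), SP5, a transcription factor and WNT target (5.09, 6.16 and 7.77 CPM and 45.8, 42.2 and 46.8 CPM, 2.87), and TRABD2B, a protease that inactivates WNT proteins (6.47, 8.18 and 6.06 CPM and 39.5, 37.2 and 39.8 CPM, 2.54). MYC, also a WNT target, was the only gene that fell (10.9, 11.5 and 9.86 CPM and 4.13, 4.41 and 4.29 CPM, -1.28). In none of the 4 did the groups overlap. SOSTDC1 was at the floor of 3 counts in each hHAR123 library, so the size of its rise is uncertain. In cHAR123 and mHAR123 neuroectoderm 1 of 49 tested rose in each (2.04%, beside 0.978% and 1.03% of all genes), TRABD2B in both (1.17 and 1.15). Compared with HAR123-KO, 1 was higher and 6 lower of 50 in cHAR123 (14.0% of those tested, beside 7.61% of all genes) and none higher and 4 lower of 50 in mHAR123 (8.0%, beside 7.33%), and none of 49 was called between the replacement lines (0.261% of all genes). In hESCs 1 of 51 rose in HAR123-KO and in cHAR123, the secreted antagonist CER1 in both (1.49 and 1.18; 1.961% of those tested, beside 1.18% and 0.85% of all genes), and none of 51 in mHAR123 (1.23% of all genes). Between the stages in hHAR123, 10 rose and 11 fell of 51, or 41.2%, beside 45.9% of all genes (24.6% higher, 21.2% lower).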

How the data were processed

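RNA-seq libraries of 4 genotypes and 2 stages (3 per group) were rRNA-depleted, directional and paired-end. The authors aligned quality-filtered reads with STAR 2.5.2b to GRCh38 and summed exon counts per gene with featureCounts. The deposited values are these raw counts per gene. The strand setting was not given in the sources used here. Of 61552 listed genes, 1 entry broken over several lines (ANK2) was left out. Library totals were 21022748 to 35198684. CPM is the count scaled to that total, and RPKM is CPM per kilobase of exon.

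Each pair of groups was fitted alone with edgeR 4.0.16 (R 4.3.3; filterByExpr, TMM, quasi-likelihood test), and p-values were adjusted by Benjamini-Hochberg over all genes tested. Both thresholds for a call, 0.01 for the adjusted p and 1 for the size of the log2 fold change, are those of the study, which used DESeq2. SE is the fold change divided by the root of the F statistic. Interactions were fitted over 12 libraries, and all of them share the hHAR123 libraries. The procedure was tested on simulated data in which only well-counted genes changed, by more than the fold threshold. That test does not bear on calls at low counts or near the threshold. Every pair of replicates differed by more than counting noise. Groups came from the column labels, and replicate numbers were not paired because deviations of same-numbered libraries did not correlate (r from -0.07 to 0.07). The 95% interval given for WNT3 was taken from its SE and so includes the spread between libraries.

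The members and all lists, including 9 marker lists and 56 further pathway genes, were chosen with earlier results of these data known. Every member called against hHAR123 is named. For the stage change, the 6 largest calls in each direction in hHAR123 and the members called as an interaction are named, and against HAR123-KO the 5 largest. Of members not called in HAR123-KO neuroectoderm, up to 3 of each role, the most abundant per length, are given with levels and the others by their log2 changes or their range. Alternatives were DESeq2 1.42.0 and its size factors, no filter on low counts, 1 fit over all 24 libraries, a replicate block, other thresholds, each replicate left out and, chosen after seeing the data, the exchange of the replacement labels in neuroectoderm. Promoters came from RefSeq (GRCh38.p14). Protein sequences were not used here.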

Additional observations from a re-analysis of the deposited data

Results flagged for a closer look

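The effect of an edit differed between neuroectoderm and hESCs, by the interaction test of edgeR, in the following members. Values are the log2 effect in neuroectoderm minus that in hESCs. For HAR123-KO the ligands were WNT4 (4.18), WNT3A (3.94), WNT9B (2.53), WNT3 (-1.02), WNT5B (-2.06) and WNT8B (-3.66). The value of WNT3 reflects a rise in HAR123-KO hESCs (1.03) beside a log2 change of 0.02 in neuroectoderm. The receptors were FZD10 (2.52), FZD8 (2.09), FZD1 (1.60) and FZD9 (-1.47), and the antagonists SFRP1 (-1.29) and SFRP2 (-1.12). In the R-spondin axis they were RNF43 (1.37, uncertain for its shared exons), LGR5 (-1.22), RSPO1 (-1.55) and RSPO2 (-1.73). LGR5 and RSPO1 were not called in neuroectoderm alone, where their log2 changes were -0.88 and -0.89. The targets and feedback genes were APCDD1 (4.02), NKD1 (3.71) and AXIN2 (1.98), with LEF1 at 1.47. For cHAR123 they were APCDD1 (2.01), WNT4 (1.5) and NKD1 (1.04), and for mHAR123 APCDD1 alone (1.95).

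WNT1, WNT10B, RSPO3, DKK1, LGR6, NOTUM and FZD2 are missing from these lists although each was called in HAR123-KO neuroectoderm. FZD2 was lower in HAR123-KO than in hHAR123 at both stages. In hESCs WNT1 had 0 counts in hHAR123 and 6 in HAR123-KO over the 3 libraries, and RSPO3 had 1 and 0. For WNT1 and RSPO3 the effect in hESCs was thus not detectable at this depth.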

How the results depend on the processing

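Of 37 member calls against hHAR123, 30 held under every alternative run for them. Of 480 alternative values 467 kept the call, 13 kept the direction only and 0 reversed. These values include an adjusted p under 0.05 and no fold threshold, which only loosen the rule and could not lose a call. Calls that rest on single libraries are given beside their results. For mHAR123 hESCs, DESeq2 called 0 members (FZD10 adjusted p 0.0109; WNT7B without an adjusted p) against 2. Without the fold threshold the calls were 41 for HAR123-KO, 16 for cHAR123 and 19 for mHAR123 against hHAR123 in neuroectoderm, 40 and 41 for cHAR123 and mHAR123 against HAR123-KO, 13 between the replacement lines, 11, 9 and 14 for HAR123-KO, cHAR123 and mHAR123 in hESCs, and 35, 9 and 13 for their interactions with stage. At an adjusted p under 0.05, calls were 2 between the replacement lines and 3 for the mHAR123 interaction. With the neuroectoderm labels of the replacement lines exchanged, the mHAR123 interaction gave 4 calls and the cHAR123 interaction 2.

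Leaving out 1 replicate gave 24 to 26 calls for HAR123-KO against hHAR123 in neuroectoderm, 6 to 7 for cHAR123, 2 to 4 for mHAR123 (2 without mHAR123 replicate 3), 21 to 24 and 19 to 22 for cHAR123 and mHAR123 against HAR123-KO, and 0 to 1 between the replacement lines. In hESCs it gave 0 to 1 for HAR123-KO, 0 for cHAR123 and 1 to 2 for mHAR123. Stage comparisons gave 32 to 37 calls in hHAR123, 35 to 39 in HAR123-KO, 38 to 40 in cHAR123 and 37 to 39 in mHAR123, and interactions 17 to 22, 3 to 4 and 1 to 3 (3 without mHAR123 hESC replicate 3; 2 without mHAR123 hESC replicate 1, mHAR123 neuroectoderm replicate 2, hHAR123 neuroectoderm replicate 1 or hHAR123 hESC replicate 3).

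The replicate block gave 24, 6 and 4 calls for HAR123-KO, cHAR123 and mHAR123 against hHAR123 in neuroectoderm and changed the count only for the stage comparison of cHAR123 (38 against 39); the numbers do not pair the libraries. With 250 bases before the start alone, 2.44% of member promoters held the motif, beside 12.1% of all.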

Other observations

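Several WNT genes lie beside each other in the genome, and their neighbours did not always move together in HAR123-KO neuroectoderm (coordinates of GRCh38). WNT10B and WNT1 lie 6586 bases apart on chromosome 12 on opposite strands, and both rose (log2 3.48 and 4.25). WNT9A and WNT3A lie 59065 bases apart on chromosome 1, where WNT3A rose (4.03) and WNT9A was at 5.23, 5.79 and 5.94 CPM in hHAR123 and 5.47, 6.24 and 6.13 CPM in HAR123-KO (0.12). The outer limits of the gene entries of WNT3 and WNT9B lie 46 bases apart on chromosome 17, the chromosome of HAR123. Their RefSeq promoter windows lie further apart, at 46818643-46818942 for WNT3 and 46851333-46851632 for WNT9B. WNT9B rose (2.81) from a level near its floor, and WNT3 had a log2 change of 0.02 with a 95% interval of -0.32 to 0.36. WNT6 and WNT10A, 6618 bases apart on chromosome 2, had too few counts to be tested between HAR123-KO and hHAR123 neuroectoderm.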
